A study of Homo sapiens with 4 samples.

Results

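The genes described here encode the core machinery of clathrin-mediated endocytosis: the clathrin chains CLTA, CLTB and CLTC, the AP2 adaptor subunits AP2A1, AP2A2, AP2B1, AP2M1 and AP2S1, the scission GTPase DNM2 and the assembly protein PICALM. They were chosen by name, and all 10 were found among the 61860 genes of the count table. RNA-seq counts came from cells labelled HT1376, an established bladder cancer cell line grown in MEM with serum. The cells had 48 h with 1 nM enfortumab vedotin (EV, n = 2) or with a control labelled WFI (n = 2). EV is an antibody-drug conjugate in which an antibody against nectin-4 carries monomethyl auristatin E, a drug that disrupts microtubules. Totals ran from 19368791 to 20727175 counts per sample. Whether the replicates came from separate cultures is not stated in the labels, and the p-values therefore reflect only the spread among these libraries, which could be technical.

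Clathrin coats form when heavy and light chains assemble, in equal numbers, into legged triskelia that build a cage on the inner face of the plasma membrane. AP2 links that cage to the membrane lipid PI(4,5)P2 and to sorting motifs in the tails of receptors, dynamin cuts the neck of the coated pit, and the coat is then stripped from the vesicle. Transferrin, LDL and growth factor receptors enter cells by this route, and antibody-drug conjugates are in general taken up by endocytosis of the antigen they bind.

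In EV-treated cells the transcripts of both clathrin light chains rose and that of the heavy chain fell. CLTA was 2.77-fold and CLTB 2.25-fold higher in EV, whereas CLTC was at 0.577 of its WFI level. Within AP2 the medium subunit AP2M1 rose 1.66-fold and the small subunit AP2S1 1.52-fold, while the alpha subunits and DNM2 moved by 1.45-fold or less. In edgeR's quasi-likelihood test with Benjamini-Hochberg adjustment, 7 of the 10 genes were higher, 2 were lower and 1, AP2B1, did not pass an adjusted p of 0.05. Calls were common in this contrast, with 66.0% of the 17465 genes tested past the same threshold, 34.5% higher and 31.5% lower. The median log2 fold change was 0.38 over the 10 genes and 0.02 over all genes tested. A change of at least 1 on the log2 scale was reached by CLTA and CLTB, against 30.8% of all genes. All 10 genes passed the filter on low counts, and in all 10 the EV and WFI samples did not overlap, as was the case for 82.8% of genes tested. In bulk RNA of a treated culture, a change in the share of cells in some state and a change of RNA per cell cannot be told apart.

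**Figure D1:**
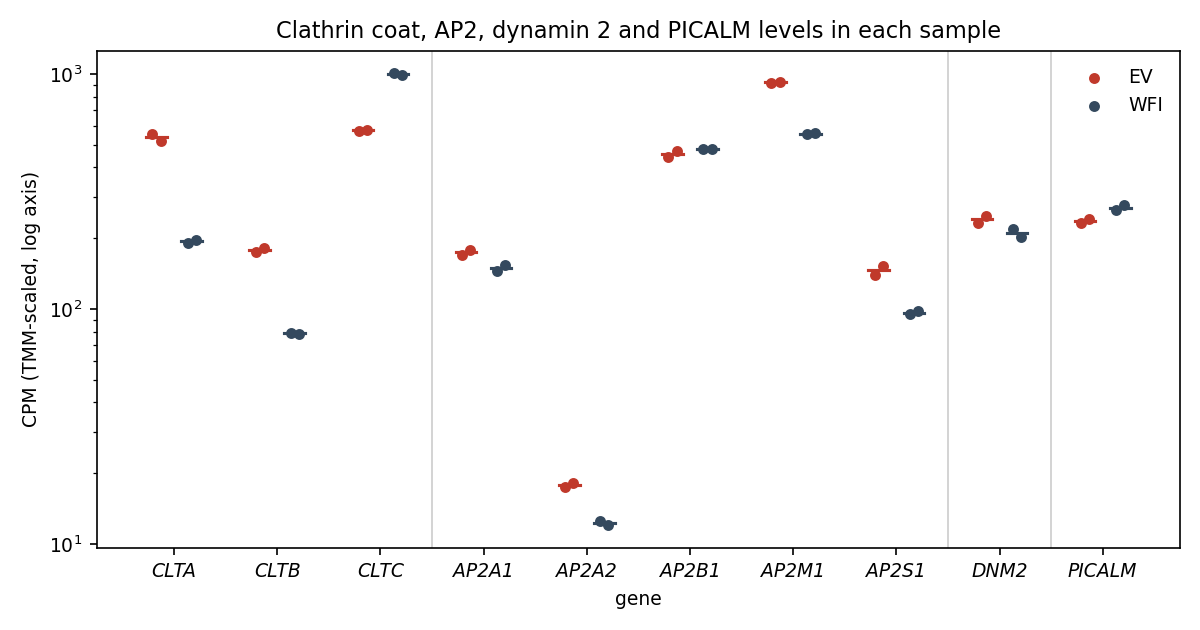
Level of each gene in every sample, in CPM with TMM scaling on a log axis, EV (red) left of WFI (dark); points are samples and short lines group means. CLTA and CLTB lie higher in EV, at 518 to 557 and 175 to 181 CPM, and CLTC lies lower, at 570 and 579 CPM.

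Spliced length moved with the contrast as a whole and is given beside the results. When coding genes were sorted into 10 bins by merged exon length, the log2 fold change had a median of 0.58 in the shortest bin (median length 1686 bases) and -0.60 in the longest (13112 bases). The members span that range, from AP2S1 with 1704 bases of merged exons to DNM2 with 13443. Fold changes were therefore also fitted with an offset for length and GC content, using either the merged exons or the principal transcript of each gene. With the merged exons 6 members were higher and 2 lower, and with the principal transcript, an alternative added after seeing the data, 4 were higher and 3 lower. The offsets moved the log2 fold change of all genes by a median of -0.15 and -0.17, and values with an offset include that shift. Taken relative to it, CLTA stood at 1.13 and 1.07, CLTB at 0.65 and 0.65, AP2M1 at 0.60 and 0.43, AP2S1 at 0.08 and 0.07, and CLTC at -0.13 and -0.11. With the principal transcript, AP2A1, DNM2 and AP2B1 stood at 0.10, 0.10 and -0.01 relative to the shift, so that their values below 0 with that offset lie within it. PICALM stood at -0.02 and -0.19. The part of length in any single gene's change was not tested beyond these fits.

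**Figure D2:**
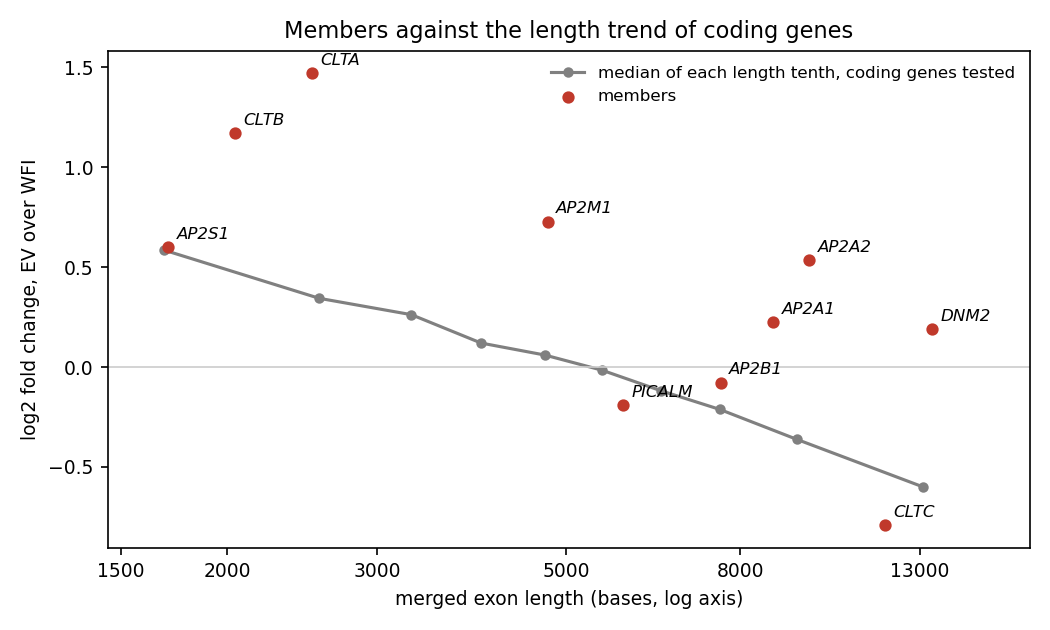
Log2 fold change (EV over WFI) against merged exon length in bases on a log axis, for the 10 members (red) and as the median of each of 10 length bins of the coding genes tested (grey). CLTA and CLTB lie well above the grey line, AP2S1 lies on it at 0.60, and CLTC, at -0.79, lies near its long end.

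CLTA encodes light chain a, which binds along the heavy chain and regulates coat assembly and the link to actin. The gene (ENSG00000122705) lies on hg38 chromosome 9 from 36190856 to 36304781 on the plus strand, with 7 exons in its principal transcript. It had 557 and 518 CPM in EV samples, against 191 and 197 CPM in WFI samples. The gap between the groups, 321 CPM, was larger than the 38.8 CPM between the 2 EV samples, the wider of the within-group ranges. The log2 fold change was 1.47 (SE 0.04, edgeR adjusted p = 1.84e-10), at percentile 86.3 of all genes tested. Light chain b, encoded by CLTB (ENSG00000175416, chromosome 5, 176392455 to 176416569, minus strand, 6 exons), is the related form that takes the same place on the heavy chain. CLTB had 175 and 181 CPM in EV samples, against 79.2 and 78.4 CPM in WFI samples. Both EV samples lay above both WFI samples, with a log2 fold change of 1.17 (SE 0.05, edgeR adjusted p = 3.32e-09). With the length and GC offset the log2 fold changes stayed positive and past the threshold, at 0.98 for CLTA and 0.50 for CLTB with merged exons and 0.90 and 0.48 with the principal transcript.

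The sequences before the starts of these light chain genes are shown because their transcripts rose together. They come from RefSeq on GRCh38.p14, which held a window for all 10 members, and are cut back to bases before the first annotated start in GENCODE 29. Capitals mark matches, on either strand, to the CCAAT box (CCAAT), the GC box (GGGCGG) and the cAMP response element (TGACGTCA). The CLTA stretch is chr9:36190671-36190855, plus strand, and the CLTB stretch is chr5:176416570-176416819, minus strand.
CLTA: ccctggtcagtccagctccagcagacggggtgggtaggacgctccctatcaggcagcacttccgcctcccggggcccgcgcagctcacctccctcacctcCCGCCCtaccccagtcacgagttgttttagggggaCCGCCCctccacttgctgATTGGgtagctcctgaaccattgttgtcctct
CLTB: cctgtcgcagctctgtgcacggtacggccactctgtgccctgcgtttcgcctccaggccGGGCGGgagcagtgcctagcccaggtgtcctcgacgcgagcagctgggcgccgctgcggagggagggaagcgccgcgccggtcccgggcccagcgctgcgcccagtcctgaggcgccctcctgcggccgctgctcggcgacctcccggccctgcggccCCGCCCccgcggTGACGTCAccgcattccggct
The CLTA stretch of 185 bases held 1 CCAAT and 2 GC box matches, and the full CLTA window of 250 bases held 2 of each. In the CLTB stretch of 250 bases there were 2 GC box matches, 1 match to the cAMP response element and 0 to the CCAAT box. RefSeq holds other CLTB windows too, and the one at chr5:176410824-176411073 held 0 matches to any of these motifs. Over the 250 bases before each RefSeq start, 42.6% of 35116 human promoter windows held a GC box, 32% a CCAAT box and 1.65% the cAMP response element. The E-box CACGTG and the TATA box TATAAA, held by 6.34% and 10.7% of windows, were searched on both strands too, and of the members PICALM held the E-box and none held the TATA box. The CLTC window, for the gene whose transcript fell, held 1 GC box match and 0 of the other motifs. Among the other members AP2B1, which did not pass the test, held 2 matches to the cAMP response element, DNM2 3 to the CCAAT box and AP2A1 7 to the GC box. These matches describe letters only.

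CLTC encodes the heavy chain, the structural leg of the triskelion (ENSG00000141367, chromosome 17, 59619689 to 59696956, plus strand, 32 exons). It had 570 and 579 CPM in EV samples, against 1005 and 985 CPM in WFI samples. The groups were 406 CPM apart, with at most 20 CPM between replicates. CLTC fell by 0.79 on the log2 scale (SE 0.03, edgeR adjusted p = 1.18e-09), at percentile 19.8 of genes tested. Its principal transcript of 7760 bases is the longest of the members. With the length and GC offset the log2 fold change was -0.28 with either length (edgeR adjusted p = 2.13e-06 and 1.2e-06), lower in EV than in WFI in both fits.

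The balance of light to heavy chain transcripts does not depend on how the libraries are scaled, because each ratio is taken within a sample. Per kb of principal transcript, CLTA and CLTB together stood at 627 and 598 CPM per kb in EV samples, against 231 and 235 CPM per kb in WFI samples. CLTC stood at 73.4 and 74.6 CPM per kb in EV samples and at 130 and 127 CPM per kb in WFI samples. The light to heavy ratio was thus 8.54 and 8.02 in EV samples, against 1.79 and 1.85 in WFI samples. On the log2 scale the EV minus WFI difference was 2.19, far larger than the SD of 0.065 in EV and 0.038 in WFI (n = 2 each). An exact two-sided permutation test gave p = 0.333, the smallest it can give with 2 samples against 2. This ratio was chosen after the values of its genes were seen. The log2 fold change of CLTA exceeded that of CLTC by 2.26, and by 1.26 and 1.18 with the 2 length and GC offsets. For CLTB against CLTC the excess was 1.96, and 0.79 and 0.76 with the offsets.

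The share of CLTA among light chain counts was compared within samples. CLTA took 76.1% and 74.2% of CLTA plus CLTB counts in EV samples, against 70.7% and 71.5% in WFI samples. The Wilson 95% intervals ran from 73.4% to 76.8% over the EV samples and from 69.5% to 72.6% over the WFI samples, and cover counting error only. The log2 ratio of CLTA to CLTB counts was 0.30 higher in EV (exact two-sided permutation p = 0.333, the smallest possible), larger than its SD of 0.108 in EV and 0.038 in WFI.

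**Figure D3:**
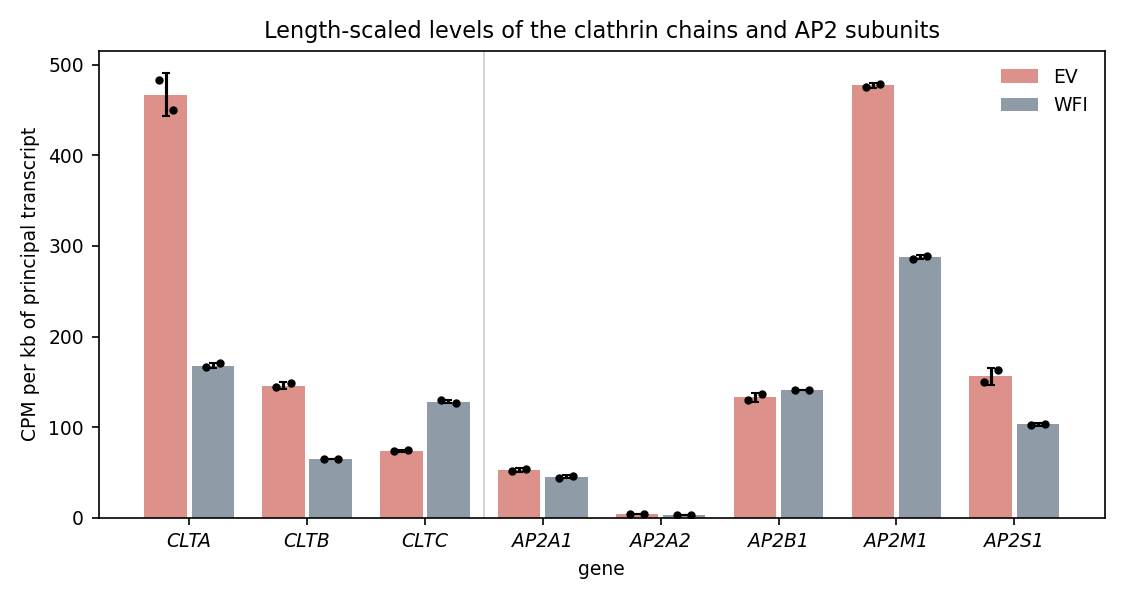
CPM per kb of principal transcript for the clathrin chains (left) and the AP2 subunits (right), EV left of WFI; bars are means of 2 samples, error bars SD and points samples. CLTA reaches 467 CPM per kb in EV against 168 in WFI, CLTC drops to 74 in EV against 128 in WFI, and AP2A2 stays below 4 in both groups.

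AP2 is a complex of an alpha, a beta2, a mu2 and a sigma2 subunit. In the reported fit 4 of its 5 genes rose, against 34.5% of all genes tested. AP2S1 did not pass with either length and GC offset, nor did AP2A1 with the one from the principal transcript. AP2M1 encodes mu2, which binds tyrosine-based sorting motifs (ENSG00000161203, chromosome 3, 184174689 to 184184091, plus strand, 12 exons). It had 917 and 924 CPM in EV samples, against 553 and 559 CPM in WFI samples. These groups were 358 CPM apart with at most 7.82 CPM between replicates, and the log2 fold change was 0.73 (SE 0.03, edgeR adjusted p = 2.05e-09). AP2M1 kept its call with the offsets, at 0.45 and 0.26. AP2S1 encodes sigma2, the smallest subunit, which helps bind dileucine motifs (ENSG00000042753, chromosome 19, 46838136 to 46850992, minus strand, 5 exons). It had 140 and 152 CPM in EV samples, against 95.1 and 97.5 CPM in WFI samples. Both EV samples were higher, by 42.4 CPM at the nearest, with a log2 fold change of 0.60 (SE 0.05, edgeR adjusted p = 2.49e-06). AP2S1 has the shortest exons of the members, and with the offsets its log2 fold change was -0.07 and -0.09 (edgeR adjusted p = 0.269 and 0.14), so it passed under the settings without an offset and not with one.

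The alpha subunit, which binds PI(4,5)P2 and recruits accessory proteins, has 2 genes. AP2A1 (ENSG00000196961, chromosome 19, 49766968 to 49807113, plus strand, 24 exons) had 170 and 178 CPM in EV samples, against 145 and 153 CPM in WFI samples. Both EV samples were higher, by 16.8 CPM at the nearest against 8.75 CPM between replicates. The log2 fold change was 0.22 (SE 0.05, edgeR adjusted p = 0.00153). Leaving out WFI replicate 1 ended the call (0.16, edgeR adjusted p = 0.0756), and with the principal transcript offset the value was -0.07 (edgeR adjusted p = 0.191). AP2A2 (ENSG00000183020, chromosome 11, 924894 to 1012245, plus strand, 22 exons) was the scarcest member, with 317 and 350 counts in EV samples and 259 and 250 counts in WFI samples. It had 17.4 and 18.1 CPM in EV samples, against 12.5 and 12.0 CPM in WFI samples. The groups did not overlap, and the log2 fold change was 0.54 (SE 0.12, edgeR adjusted p = 0.00268). Without WFI replicate 2 the value was 0.47 and did not pass (edgeR adjusted p = 0.0517). AP2A1 took 90.7% and 90.8% of the counts of both alpha genes in EV samples, against 92% and 92.7% in WFI samples. The log2 ratio of AP2A1 to AP2A2 counts was -0.31 in EV relative to WFI (exact two-sided permutation p = 0.333, the smallest possible). The Wilson intervals of EV replicate 2 (89.8% to 91.7%) and WFI replicate 1 (91.1% to 92.9%) overlap.

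AP2B1 encodes beta2, which binds clathrin and cargo adaptors such as arrestins (ENSG00000006125, chromosome 17, 35578046 to 35726409, plus strand, 22 exons). It had 443 and 468 CPM in EV samples, against 481 and 480 CPM in WFI samples. The gap of 12.5 CPM between the groups was smaller than the 25 CPM between the EV replicates. Its log2 fold change of -0.08 (edgeR adjusted p = 0.0687) had a 95% interval, not adjusted for multiple tests, that ran from -0.155 to -0.001. AP2B1 passed as lower without EV replicate 2 (-0.13, edgeR adjusted p = 0.00426), and stood at 0.01 with the merged exon offset. It also passed when low counts were not filtered (-0.15, edgeR adjusted p = 0.00148) and with the principal transcript offset (-0.17, edgeR adjusted p = 0.00069), but these settings moved all genes by a median of -0.08 and -0.17, and relative to that AP2B1 stood at -0.08 and -0.01. The annotated AP2B1 span overlaps TAF15 on the same strand by 12619 bases, where TAF15 was counted at 0 CPM in EV and 0.121 CPM in WFI, so how those reads were shared is uncertain.

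DNM2 encodes dynamin 2, the widely expressed GTPase that constricts and cuts the neck of the pit (ENSG00000079805, chromosome 19, 10718079 to 10833488, plus strand, 20 exons). It had 233 and 248 CPM in EV samples, against 219 and 203 CPM in WFI samples. The gap of 13.8 CPM was smaller than the 16.2 CPM between the WFI replicates. The log2 fold change was 0.19 (SE 0.05, edgeR adjusted p = 0.00525). Leaving out WFI replicate 2 ended the call (0.10, edgeR adjusted p = 0.201), as did leaving out EV replicate 2 (0.13, edgeR adjusted p = 0.0542). When low counts were not filtered the value was 0.11 (edgeR adjusted p = 0.0758), which relative to the shift of all genes by -0.08 is 0.19, as in the reported fit. With the offsets it was 0.31 for merged exons and -0.07 for the principal transcript (edgeR adjusted p = 8.95e-05 and 0.207).

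PICALM encodes a clathrin assembly protein that binds PI(4,5)P2, helps shape the pit and sorts SNARE proteins (ENSG00000073921, chromosome 11, 85957684 to 86069882, minus strand, 20 exons). It had 232 and 242 CPM in EV samples, against 263 and 276 CPM in WFI samples. All EV values lay below all WFI values, by 21.9 CPM at the nearest, with at most 12.9 CPM between replicates. PICALM fell by 0.19 on the log2 scale (SE 0.04, edgeR adjusted p = 0.00182), and was at -0.17 and -0.36 with the offsets, past the threshold in both. CLTA, CLTB, CLTC, AP2M1 and PICALM were past the threshold in the same direction under every setting run. For PICALM with the merged exon offset, that call lies within the shift of all genes, at -0.02 relative to it.

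**Figure D4:**
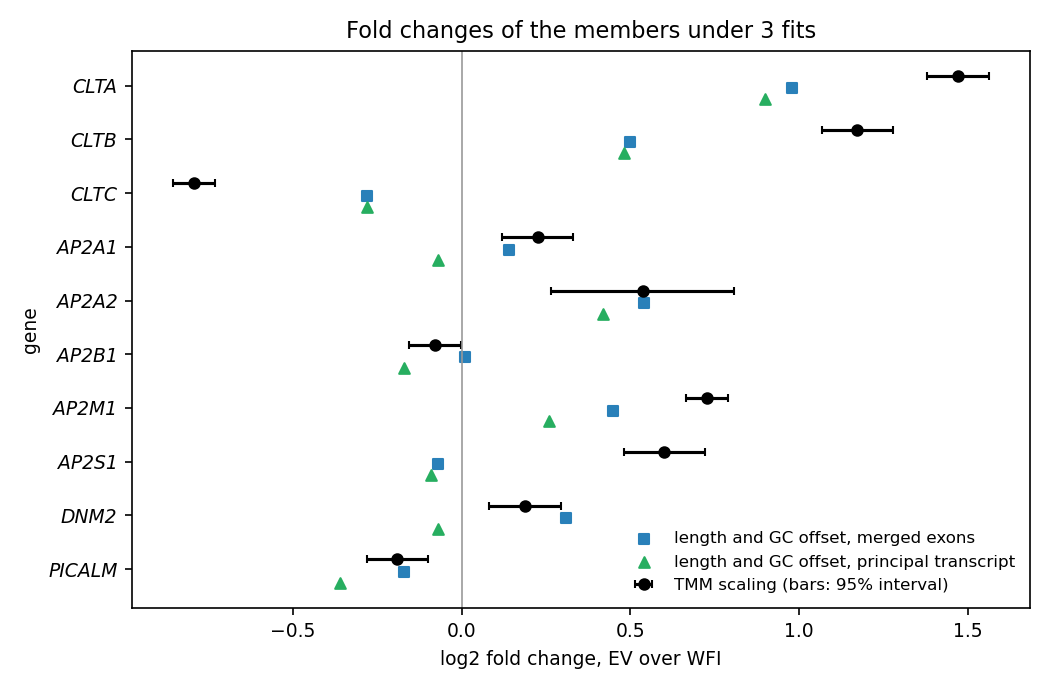
Log2 fold change (EV over WFI) of each member with its 95% interval under TMM scaling (black), and its value with a length and GC offset from merged exons (blue) or the principal transcript (green). CLTA, CLTB and CLTC move towards 0 with an offset, to 0.98, 0.50 and -0.28 for merged exons, and AP2S1 lies at -0.07 with it and at 0.60 without.

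Ordered by level per kb of principal transcript, AP2M1 was highest in both groups, at 477 ± 2.86 CPM per kb in EV and 288 ± 2.00 in WFI (SD, n = 2). In EV samples CLTA followed at 467 ± 23.8 CPM per kb and overlapped AP2M1. AP2S1 (156), CLTB (146) and AP2B1 (133) came next in EV, and then PICALM (101), CLTC (74.0), DNM2 (67.1), AP2A1 (53.0) and AP2A2 (3.88). In WFI samples the order after AP2M1 was CLTA (168), AP2B1 (141), CLTC (128), PICALM (115), AP2S1 (103), CLTB (64.9), DNM2 (58.9), AP2A1 (45.3) and AP2A2 (2.68), all in CPM per kb. No neighbours in the WFI order overlapped, and in EV only CLTA and AP2M1 did. CLTC thus stood in the seventh place in EV and the fourth in WFI. Per-kb levels depend on the length used, and gene counts do not show which transcript is expressed. Per kb of merged exons CLTA (214) lay above AP2M1 (194) in EV samples, and CLTC was the sixth in EV at 48.5 CPM per kb and the second in WFI at 84.1, above CLTA at 77.2.

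Other annotated genes overlap the members on the opposite strand. GNE lies across CLTA for 62616 bases, PTRH2 across CLTC for 22321 bases and ARL10 across CLTB for 9411 bases. Their levels were 46.0, 38.7 and 5.08 CPM in EV and 67.6, 28.4 and 1.61 CPM in WFI, lower than those of the members they overlap. The library kit keeps strand, but the strand setting of the counting is not given in the sources used here.

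Around these core genes, the rest of the clathrin-mediated route was lower more often than higher. Of 57 further genes listed, 53 passed the filter, and 11 rose, 27 fell and 15 did not pass. Their median log2 fold change was -0.25. The share called, 71.7%, was near the 66.0% of all genes. The count of higher genes was small and unsteady: it was 5 without WFI replicate 1, 7 without WFI replicate 2, 7 without EV replicate 2, and 6 and 5 with the length and GC offsets. The count of lower genes was 28 and 34 with the offsets. Over all genes the calls moved the same way, from 6019 higher and 5509 lower in the reported fit. They were 5020 higher and 6177 lower with merged exons, and 4941 and 6359 with the principal transcript.

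Of the 4 paralogs of the members listed, 2 fell. CLTCL1, a second heavy chain gene, had 13.2 and 15.2 CPM in EV samples, against 26.7 and 27.5 CPM in WFI samples (log2 fold change -0.93, edgeR adjusted p = 3.61e-05), and so moved in the same direction as CLTC. DNM1, the dynamin best known from neurons, had 48.4 and 63.9 CPM in EV samples, against 94.2 and 87.0 CPM in WFI samples (log2 fold change -0.69, edgeR adjusted p = 0.000167). DNM3 did not pass (log2 fold change 0.41, edgeR adjusted p = 0.512), and SNAP91, with 13 counts over both EV samples and 1 over both WFI samples, was not tested. CLTCL1 and DNM1 were chosen as examples after their values were seen. They have 10049 and 10775 bases of merged exons. The bins of median length 9321 and 13112 bases had median log2 fold changes of -0.36 and -0.60. Values with a length offset are not given for these genes, and the part of length in their falls was not tested.

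The other genes were grouped by role, and the share called in a group is given to be read against the 66.0% of all genes. AAK1, the kinase that phosphorylates the mu2 subunit, had 27.2 and 29 CPM in EV samples, against 107 and 108 CPM in WFI samples. It fell by 1.94 on the log2 scale (SE 0.07, edgeR adjusted p = 8.18e-10), and was at -1.19 and -1.25 with the length and GC offsets. Of 6 AP2 helper genes, 4 fell (AAK1, BMP2K, NECAP1 and NECAP2) and 0 rose, while the assembly factors AAGAB and CCDC32 did not pass. The share called, 66.7%, was near that of all genes. Of 7 pioneer and scaffold genes, which start the pit, 3 fell (EPS15, ITSN2 and FCHO2) and 0 rose, a share of 42.9%. EPS15 stood at 40.8 ± 0.348 CPM in EV and 72.9 ± 1.86 CPM in WFI (SD, n = 2). Of 13 cargo adaptor genes tested, 7 fell and 2 rose, and the 69.2% called is again near the share of all genes. The arrestins, which bring G protein-coupled receptors to clathrin and AP2, went apart: ARRB1 stood at 8.68 ± 1.02 CPM in EV and 21.3 ± 1.04 CPM in WFI, and ARRB2 at 49.1 ± 0.245 CPM in EV and 35.4 ± 1.62 CPM in WFI. EPN1, an epsin that bends membrane, rose by 0.52 on the log2 scale. It stood at 0.90 and 1.06 with the offsets, which took it as 17616 bases of merged exons and 16219 bases of principal transcript. Gene counts do not show whether so long a transcript was expressed. The ARRB2 rise did not pass with either offset (0.13 and -0.03).

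Later steps were mixed. HSPA8, the chaperone that strips clathrin from vesicles, had 2194 and 2155 CPM in EV samples, against 1259 and 1258 CPM in WFI samples, a log2 fold change of 0.79 (SE 0.02, edgeR adjusted p = 2.98e-10). Its cochaperone GAK did not pass. DNAJC6, also listed under uncoating, fell by 0.44 on the log2 scale (edgeR adjusted p = 0.0414), with 6.73 CPM in EV and 9.14 CPM in WFI. Of 8 phosphoinositide enzymes 5 fell and 2 rose (87.5% called), with SYNJ2, a phosphatase of PI(4,5)P2, at 31.6 ± 5.01 CPM in EV and 89.8 ± 3.43 CPM in WFI. Of 10 membrane bending and scission genes tested 4 rose and 4 fell (80% called). Among them SNX33 fell by 1.28 and SH3GL1, an endophilin, rose by 0.39 on the log2 scale, the second of these at -0.07 and -0.05 with the offsets. PIP5K1B and SH3GL3, which lie farthest to the right in the plot of pathway genes, had only 26 and 43 counts over both EV samples and 4 and 15 over both WFI samples. Both are among the rises counted here, and both passed the filter on low counts only through EV.

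**Figure D5:**
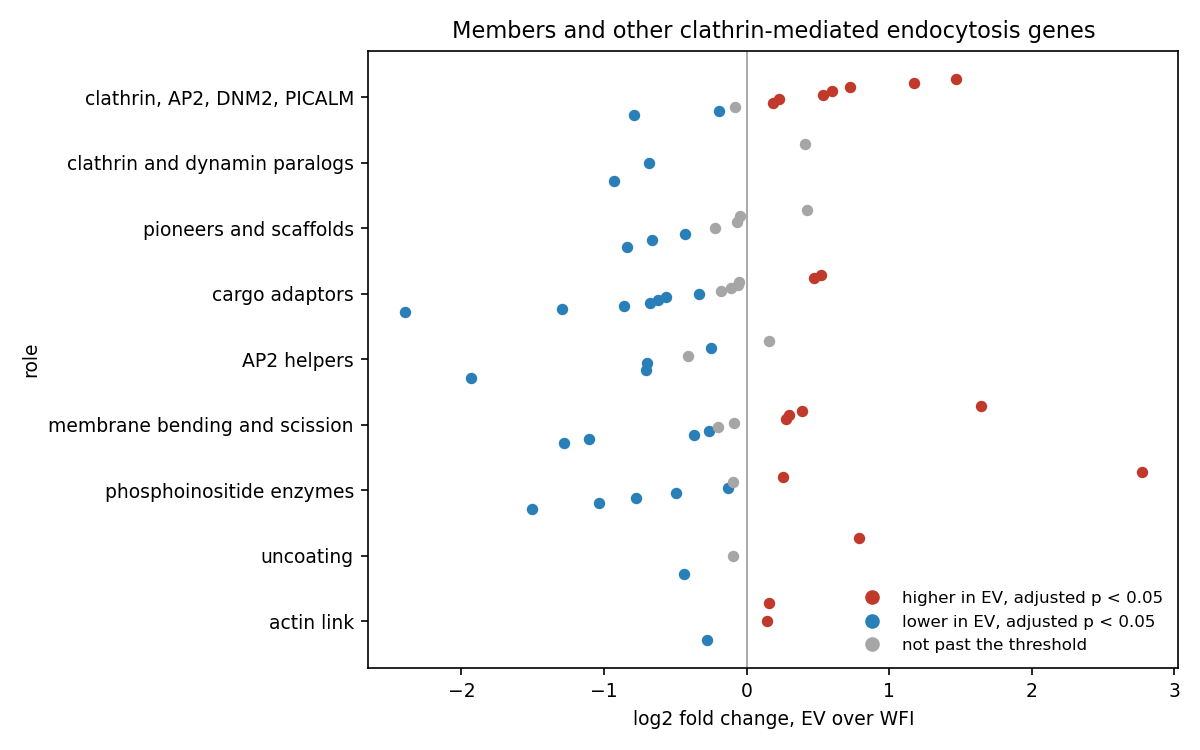
Log2 fold change (EV over WFI) of the 10 members (top row) and of 53 other clathrin-mediated endocytosis genes by role; red and blue points passed an adjusted p of 0.05 as higher or lower in EV, grey points did not. The members hold 7 red and 2 blue points, and the AP2 helpers and pioneers hold 0 red and 7 blue.

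The cells are HT1376 by their labels, and that identity was not tested against another profile of the line. Markers gave a mixed picture: KRT8, KRT18, KRT7, FN1 and VIM were high, and CDH1, CLDN7 and KRT19 were very low. They do not settle the identity. Keratins KRT8, KRT18 and KRT7 ran from 384 to 1903 CPM. Summed epithelial markers ran from 3357 to 3392 CPM in EV and from 1547 to 1565 CPM in WFI, nearly all of it from these keratins. CDH1, CLDN7 and KRT19 lay below 1 CPM in all samples. EPCAM and GRHL2 reached at most 1.43 and 1.26 CPM in EV samples and 0.287 and 0 CPM in WFI samples. Of 10 urothelial markers, 4 (KRT20, UPK1B, UPK2 and UPK3A) lay below 1 CPM throughout, with KRT20 at 0 counts. The other 6 (GATA3, KRT5, TP63, FOXA1, UPK1A and PPARG) were all higher in EV, where 34.5% of all genes tested were higher. Of these, KRT5, TP63 and UPK1A passed the filter on low counts only through EV, so they could only come out higher. The summed urothelial markers ran from 101 to 106 CPM in EV and from 58.4 to 59.5 CPM in WFI. GATA3 stood at 10.1 CPM in EV and 0.841 CPM in WFI, and KRT5 and TP63 had 231 and 57 counts over both EV samples and 0 over both WFI samples. Summed mesenchymal markers ran from 7409 to 7510 CPM in EV and from 11884 to 12049 CPM in WFI. Of these FN1 (5298 CPM in EV, 10014 CPM in WFI) and ZEB1 (51.3 CPM in EV, 73.9 CPM in WFI) fell, VIM rose (1959 CPM in EV, 1724 CPM in WFI) and CDH2 did not pass. Of 12 leukocyte, endothelial and fibroblast markers 7 lay below 1 CPM in every sample. Summed levels were 7.70 to 8.73 CPM in EV against 1.31 to 2.15 CPM in WFI for the leukocyte markers, 4.73 to 6.09 against 1.40 to 2.34 CPM for the endothelial ones, and 8.26 to 11.3 against 10.9 to 12.2 CPM for the fibroblast ones. The part of these marker differences in the results was not tested.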

How the data were processed

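Total RNA of 4 HT1376 samples was sequenced with a directional kit, per the labels' protocols. The deposited table gives raw counts per gene, with no normalization seen in the values. The build was hg38, per the submitters' processing notes. For the aligner, the counter, the strand setting and the annotation release, the sources used here give nothing.

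Symbols matched 61757 of 61860 identifiers. Coordinates, lengths and GC content came from GENCODE 29, which holds 17073 of 17465 genes tested. The principal transcript is the longest at the best APPRIS level. edgeR 4.0.16 in R 4.3.3 was used with TMM scaling, filterByExpr, the quasi-likelihood test with group as the only term, and adjustment over all genes tested. CPM uses TMM-scaled library sizes, and SE is the log2 fold change over the square root of F. Replicates were compared with each other and exceeded sampling noise (4.72 in EV and 2.25 in WFI, as chi-square over degrees of freedom), so none was merged. Calls used an adjusted p below 0.05. Alternatives were DESeq2 1.42.0, other scalings and filters, a replicate block, leaving out each sample, and loess offsets for length and GC.

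All 10 members were named. From each other list the called genes with the largest rises and falls were named (4 each way for the main pathway list, 2 for others), at mean log2 CPM no lower than 2 and groups that did not overlap. Further examples were chosen after their values were seen. The members and lists were chosen with earlier results of these data known. Intervals of shares cover counting error only, since reads are not independent molecules.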

Additional observations from a re-analysis of the deposited data

How the results depend on the processing

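For the members, 107 of 120 refits kept the direction and the side of the threshold. The count of higher members, 7 in the reported fit, was 4 with the principal transcript offset and 5 to 7 with a sample left out, and that of lower members was 2 to 3 with a sample left out. Direction changed, always to values that did not pass, for AP2B1 (0.01 with the merged exon offset), AP2S1 (-0.07 and -0.09 with the merged exon and principal transcript offsets), SH3GL1 (-0.07 and -0.05 with the same), and, with the principal transcript alone, AP2A1 (-0.07), DNM2 (-0.07) and ARRB2 (-0.03). The cause of these changes was not tested. Other clathrin-mediated endocytosis genes higher in EV numbered 11, but 6 and 5 with the offsets and 5 to 9 with a sample left out. The count of higher cargo receptors was 1, not 2, with the merged exon offset. With the principal transcript it was 2, but M6PR was no longer among them, so the genes were not the same. Lower COPI genes numbered 3 to 5, not 6, and higher caveolar and clathrin-independent genes 2 to 3, not 4, with a sample left out. The light to heavy chain difference was 2.14 to 2.23 with a sample left out. With merged exon lengths it was 2.17, but a fixed length scales both groups alike and could hardly move it. With the 2 length and GC offsets the log2 fold change of CLTA exceeded that of CLTC by 1.26 and 1.18. For CLTB against CLTC the excess was 0.79 and 0.76.

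The replicate numbers share no stated batch, and deviations of same-numbered samples correlated at 0.0159 across genes. With the number as a replicate block, 7 members were higher and 2 lower, and 5957 genes were higher and 5573 lower over all, against 6019 and 5509 without it. With 2 samples a group, small changes such as those of AP2B1 and DNM2 lie at the limit of what the replicate spread resolves.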

Other observations

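Receptors that use the clathrin route were mostly lower in EV. Of 11 listed, 8 fell, 2 rose and 1 did not pass, so that 90.9% were called, against 66.0% of all genes. Their median log2 fold change was -1.0, against 0.02 for all genes tested. With the length and GC offsets it was -0.77 for merged exons and -0.91 for the principal transcript, against -0.11 and -0.13 for all genes. LRP1, a large scavenger receptor, stood at 226 ± 2.21 CPM in EV and 702 ± 19.2 CPM in WFI (SD, n = 2), and IGF1R, a growth factor receptor, at 13.8 ± 2.38 CPM in EV and 57.5 ± 0.907 CPM in WFI. TFRC, the transferrin receptor and a standard cargo of AP2, rose to 735 ± 8.58 CPM in EV, against 372 ± 1.98 CPM in WFI. M6PR rose by 0.26 on the log2 scale, and did not pass with the length and GC offsets (0.02 and 0.07).

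In the lists of other coats and adaptors given here, more genes fell than rose in the reported fit. Over all genes 34.5% rose and 31.5% fell. Of 9 COPI genes, which coat vesicles of the Golgi, 3 rose and 6 fell, although 3 fell without WFI replicate 2. The share of COPI genes called in the reported fit was 100%, against 66.0% of all genes. COPE and COPZ2 rose by 0.92 and 0.94 on the log2 scale, while COPA fell by 0.95 and ARCN1 fell by 0.42. With the length and GC offsets COPE stood at 0.37 and 0.21 and COPZ2 at 0.34 and 0.30, and COPA at -0.90 and -0.94. In the list of 11 genes of the AP1 and GGA adaptors, which work with clathrin at the Golgi and endosomes, 3 rose and 6 fell (81.8% called). The epithelial mu subunit AP1M2 stood at 45.1 ± 1.72 CPM in EV and 17.3 ± 0.736 CPM in WFI (log2 fold change 1.38, and 0.81 and 0.87 with the offsets), and AP1S2 rose by 0.46, while GGA3 and AP1G1 had log2 fold changes of -0.70 and -0.56. The AP1G1 fall did not pass with the merged exon offset (-0.12, edgeR adjusted p = 0.06), and was at -0.16 with the principal transcript. Of 15 genes of AP3, AP4 and AP5, 3 rose and 8 fell (73.3% called). AP3B2, the neuronal AP3 beta subunit, stood apart, with 691 counts over both EV samples and 18 over both WFI samples. It is among the 3 that rose, and passed the filter on low counts only through EV. The log2 fold change was 0.91 for AP4B1, -0.86 for AP3S2 and -0.83 for AP5B1.

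Of 13 genes of caveolae and other clathrin-independent uptake, 10 were tested, 4 rose and 3 fell, and the 70% called is near the 66.0% of all genes. The count of higher genes was 2 without WFI replicate 1, WFI replicate 2 or EV replicate 2. The caveolar coat genes CAVIN3 and CAVIN1 stood at 80.2 ± 3.61 and 1204 ± 66.4 CPM in EV and at 35.6 ± 0.493 and 780 ± 5.72 CPM in WFI. Their log2 fold changes of 1.17 and 0.63 were 0.42 and 0.22 with the merged exon offset and 0.43 and 0.42 with the principal transcript. EHD2, an ATPase at the neck of caveolae, and the GTPase ARF6 had log2 fold changes of -0.91 and -0.99. FLOT1 had 6 counts over both EV samples and 6 over both WFI samples, and was not tested.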
